A study of Mus musculus with 10 samples.

Results

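Chemokine receptors are G protein-coupled receptors that steer leukocytes along gradients of small secreted proteins. In bone marrow, CXCR4 holds B-cell progenitors close to stromal cells that secrete its ligand CXCL12, and mature lymphocytes use CCR7 and CXCR5 to enter the T zones and follicles of lymphoid organs. The 9 genes described here were taken by symbol from the 55573 genes of the count table. They comprised the CXCL12 receptors Cxcr4 and Ackr3, the lymphoid homing and positioning receptors Ccr7, Cxcr5, Ccr6, Ccr9 and Cxcr3, and the myeloid trafficking receptors Ccr1 and Ccr2. All 9 had a row in the table, and 3 of them, Cxcr4, Ccr7 and Cxcr5, passed the filter on low counts and were tested.

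RNA came from bone marrow B cells of mice with the genotype PAX5-ELN H2B-GFP, that is, a leukemia fusion of the transcription factor PAX5 with elastin together with a GFP-tagged histone that is diluted by division. There were 5 libraries labelled GFP high and quiescent and 5 labelled GFP low and proliferating. Both groups carried the fusion, both received doxycycline, and the time given for both was 35 days, with no age given. The promoters driving the transgenes are not given in the sources used here, and whether the libraries came from separate mice is not stated, so that p-values cover the spread among these libraries, which may be technical.

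Total counts ranged from 11347097 to 13838769 in GFP high libraries and from 10640894 to 14858520 in GFP low libraries. The 13 B-cell progenitor markers summed to 15784 to 18566 CPM (counts scaled to a common library size) over the GFP high set, against 12179 to 14173 CPM over the GFP low set, led by the surrogate light chain gene Igll1, with 3413 ± 204 CPM in the GFP high set, against 2483 ± 153 CPM in the GFP low set (SD, n = 5 each). Of the 10 T-cell markers Cd8a, Themis and Bcl11b were at 0 in all libraries, and the list summed to 3.19 to 7.93 CPM across the GFP high set, against 1.49 to 4.65 CPM across the GFP low set, led by Cd28. The main separation of libraries within the groups set replicates 4 and 5 apart from replicates 1 to 3 in both groups, and it held 34.8% of the variance of the deviations from the group means. The labels name no batch.

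Of the CXCL12 receptors, Cxcr4 had the highest level of the 9 genes and Ackr3 was near the limit of detection. The 250 bases before the RefSeq start of each are printed (GRCm38.p6, gene strand, 5′ to 3′). The capitals mark matches, on either strand, to the letters of a TATA box (TATAAAA) or of a GC box, the element bound by SP1 (CCGCCC).
Cxcr4, chr1:128592300-128592549, minus strand: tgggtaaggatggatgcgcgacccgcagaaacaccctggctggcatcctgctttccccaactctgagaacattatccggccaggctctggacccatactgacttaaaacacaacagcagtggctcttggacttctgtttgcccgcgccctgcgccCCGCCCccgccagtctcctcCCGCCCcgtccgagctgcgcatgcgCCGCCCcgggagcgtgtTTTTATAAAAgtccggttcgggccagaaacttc
Ackr3, chr1:90203730-90203979, plus strand: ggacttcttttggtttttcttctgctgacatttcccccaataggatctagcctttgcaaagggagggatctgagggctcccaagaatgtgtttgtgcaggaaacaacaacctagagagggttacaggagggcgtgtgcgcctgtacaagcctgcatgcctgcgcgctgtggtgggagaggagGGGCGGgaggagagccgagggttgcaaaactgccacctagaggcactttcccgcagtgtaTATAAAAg

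The Cxcr4 stretch held the TATA letters on both strands at overlapping positions, starting 33 and 30 bases before the annotated start, and 3 GC boxes. The Ackr3 stretch held 1 TATA match, starting 8 bases before the annotated start, and 1 GC box on the other strand. Among 32851 RefSeq promoter windows of the same length, 4.98% held the TATA letters and 32.7% the GC box. These are letter matches, no binding was measured, and a link between them and the RNA levels was not tested.

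Cxcr4 was the most abundant of the 9 genes in every library. On a scale of CPM per kilobase of exon, which allows levels of different genes to be compared, it averaged 86.6 ± 31.5 in the GFP high set, against 71.3 ± 34.1 in the GFP low set. Ccr7 followed, with 24.1 ± 5.83 in the GFP high set, against 7.78 ± 0.584 in the GFP low set, then Cxcr5, with 1.82 ± 1.12 in the GFP high set, against 0.513 ± 0.184 in the GFP low set (SD, n = 5 each). The ranges of Cxcr4, Ccr7 and Cxcr5 did not overlap in either group. Cxcr3 came next, at 0.308 ± 0.299 in the GFP high set, against 0.348 ± 0.258 in the GFP low set, and its range overlapped that of Cxcr5 in GFP low but not in GFP high. The other 5 genes averaged at most 0.0571 CPM per kilobase in either group, and their ranges overlapped, so that their order was not resolved.

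**Figure D1:**
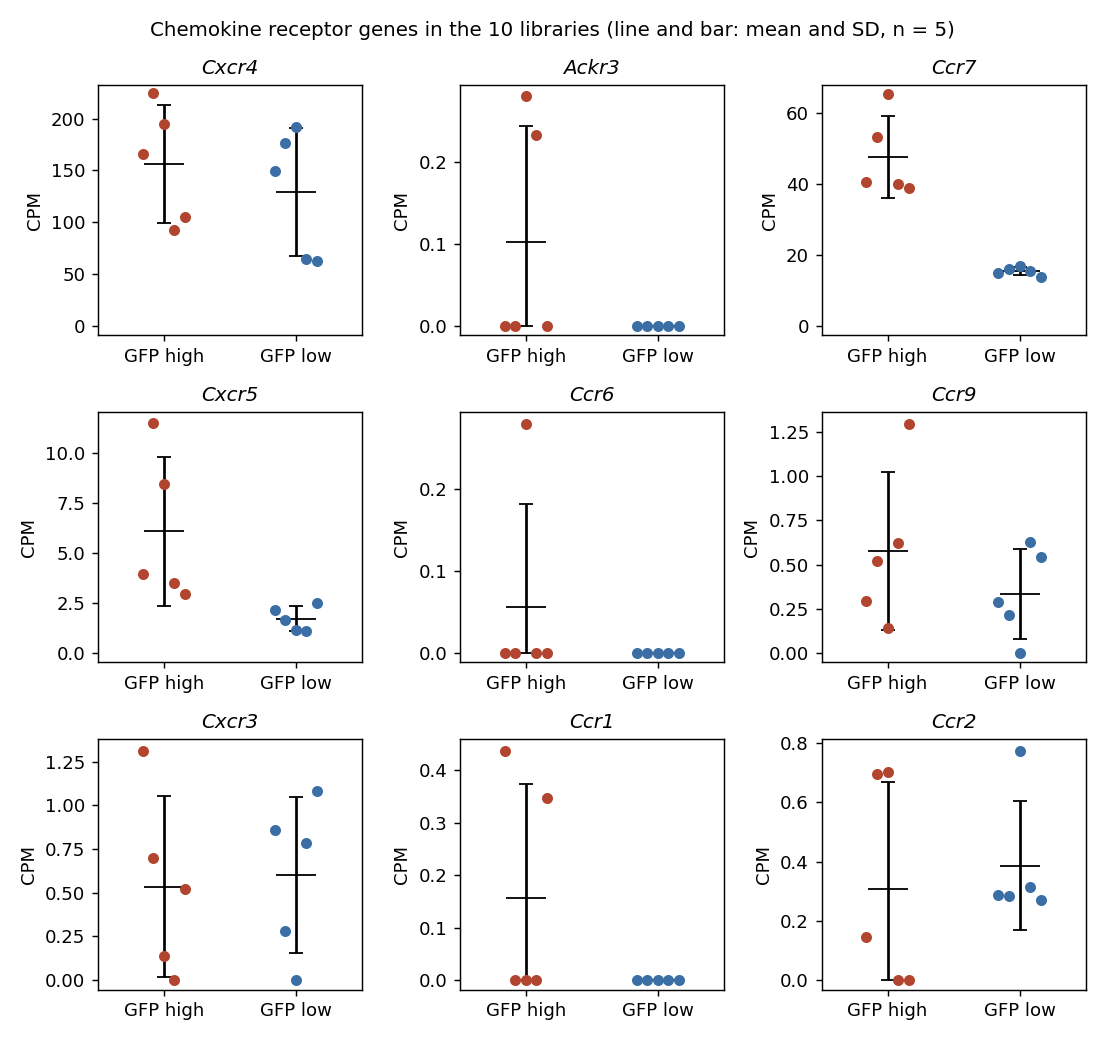
CPM of each of the 9 receptor genes in the 5 GFP high libraries (left, red) and the 5 GFP low libraries (right, blue), replicates 1 to 5 from left to right, with the mean and SD as a line and bar that stops at 0. Each panel has its own axis. Ccr7 and Cxcr5 separate the groups, Cxcr4 falls into upper and lower clusters in both groups, and the other 6 genes stay at or under 1.31 CPM.

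Cxcr4 (ENSMUSG00000045382, mm10 chromosome 1, 128588199 to 128592293) gave counts of 2281, 2576, 2780, 1183 and 1214 across GFP high libraries 1 to 5, against 2078, 2502, 1979, 822 and 924 across GFP low libraries 1 to 5. Scaled to library size these were 166, 224, 195, 92.1 and 105 CPM in GFP high, against 149, 177, 192, 64.6 and 62.6 CPM in GFP low. The groups overlapped widely, while libraries 4 and 5 lay below libraries 1 to 3 in both groups.

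The mean Cxcr4 level was 157 ± 57.0 CPM in the GFP high set, against 129 ± 61.6 CPM in the GFP low set (SD, n = 5 each). The log2 fold change of 0.28 ± 0.34 (SE) missed the threshold of 0.05 (adjusted p = 0.579, edgeR's quasi-likelihood test with Benjamini-Hochberg adjustment). Same-numbered libraries deviated together across all genes, and with the replicate number as a block Cxcr4 was higher in GFP high by 0.35 ± 0.09 on the log2 scale (adjusted p = 0.00899), a fold of 1.27. It was higher in GFP high in 5 of 5 pairs, by 1.12-, 1.27-, 1.02-, 1.43- and 1.68-fold in pairs 1 to 5. That pattern in all pairs was shared by 22.9% of the 12772 genes tested, and 20.7% of them were called higher with the block.

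The spread of Cxcr4 followed the replicate number more than the sort. Of its sum of squares on the log2(CPM + 0.5) scale, 88.3% lay between replicate numbers, 7.76% between GFP high and GFP low, and 3.96% in the remainder, against medians of 42.7%, 27.4% and 16.3% over all genes tested. With 5 replicate numbers and 2 groups, the replicate share would be the larger even without any effect, so the medians are the reference. In GFP high, Cxcr4 averaged 98.6 ± 9.19 CPM in replicates 4 and 5 (SD, n = 2) and 195 ± 29.1 CPM in replicates 1 to 3 (SD, n = 3). In GFP low it averaged 63.6 ± 1.46 CPM in replicates 4 and 5 (SD, n = 2) and 173 ± 21.6 CPM in replicates 1 to 3 (SD, n = 3). Replicates 4 and 5 thus held 0.505 and 0.369 of the level of replicates 1 to 3 in GFP high and GFP low.

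Within replicates 4 and 5 alone Cxcr4 rose in GFP high by 0.62 ± 0.11 (edgeR adjusted p = 0.00289), where 10.3% of genes were called higher. Within replicates 1 to 3 alone, where 10.8% of genes were called higher, the log2 fold change was 0.21 ± 0.14 and did not pass (adjusted p = 0.306). The difference between these effects, 0.45 ± 0.15 with the block, did not pass over all genes (unadjusted p = 0.00832, adjusted p = 0.711), and 0.0157% of genes passed that test. The replicates were divided in this way after the data had been seen.

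**Figure D2:**
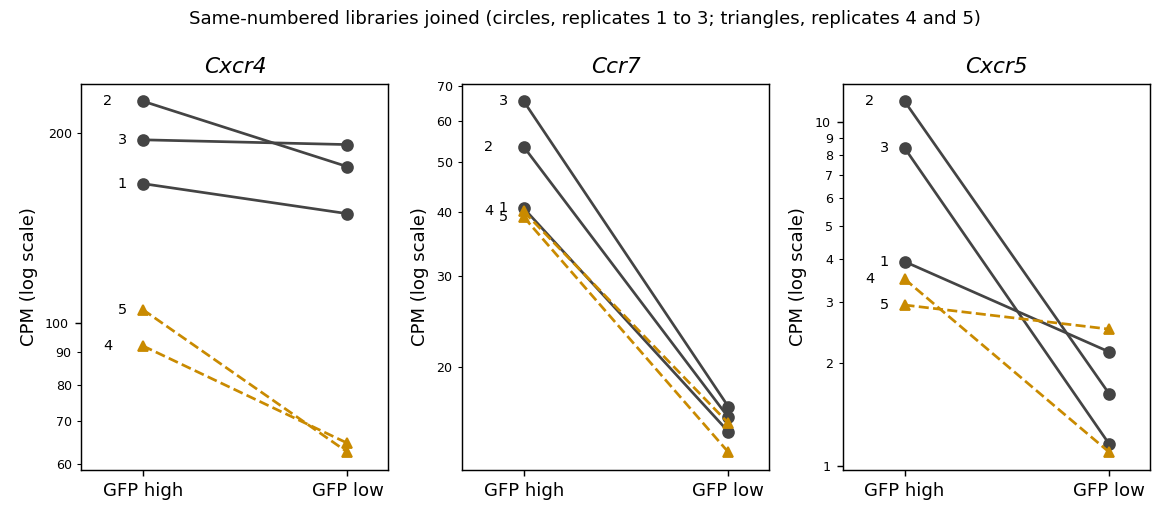
CPM on a log axis for Cxcr4, Ccr7 and Cxcr5, GFP high on the left and GFP low on the right of each panel, with a line joining the libraries of the same number (circles and solid lines, replicates 1 to 3; triangles and dashed lines, replicates 4 and 5). All 15 lines fall toward GFP low, and for Cxcr4 the lines of replicates 4 and 5 lie below those of replicates 1 to 3.

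Ackr3, the atypical receptor that takes up CXCL12 without G protein signalling (ENSMUSG00000044337, chromosome 1, 90203980 to 90216751), gave 0, 0, 4, 3 and 0 counts across the GFP high libraries, against 0 across all the GFP low ones. A floor of 3 counts corresponds to 0.202 to 0.282 CPM per library and covers counting error only. Of counts from 1 to 20, 68.4% were even, so single counts may not be independent and the floor may understate that error. Ackr3 RNA was thus at or near the limit of detection in both groups, and no fold change is given.

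Ccr7, the receptor for CCL19 and CCL21 (ENSMUSG00000037944, chromosome 11, 99144196 to 99155077), rose in GFP high. It gave counts of 557, 613, 933, 514 and 451 across GFP high libraries 1 to 5, against 209, 226, 173, 198 and 202 across GFP low libraries 1 to 5. In CPM these were 40.6, 53.4, 65.4, 40.0 and 39.0 in GFP high, against 14.99, 15.97, 16.8, 15.6 and 13.7 in GFP low. The lowest GFP high library was above every GFP low library, and the GFP low libraries lay close together.

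The mean Ccr7 level was 47.7 ± 11.5 CPM in the GFP high set, against 15.4 ± 1.15 CPM in the GFP low set (SD, n = 5 each). The log2 fold change was 1.63 ± 0.16 (SE, edgeR adjusted p = 2.28e-05), a fold of 3.10, in a comparison that called 27.5% of the 12772 genes tested, 12.0% higher and 15.4% lower. Groups that did not overlap, with GFP high above, were seen for 7.92% of genes. Pair by pair the fold was 2.71, 3.34, 3.91, 2.57 and 2.86. With replicates 4 and 5 on their own Ccr7 rose by 1.42 ± 0.17 (edgeR adjusted p = 0.000199), and with replicates 1 to 3 on their own by 1.77 ± 0.19 (adjusted p = 0.000434). Here 93.0% of the sum of squares lay between GFP high and GFP low and 5.22% between replicate numbers.

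Cxcr5, the receptor for the follicular chemokine CXCL13 (ENSMUSG00000047880, chromosome 9, 44511787 to 44561877), was also higher in GFP high, at a lower level. It gave counts of 54, 132, 120, 45 and 34 across GFP high libraries 1 to 5, against 30, 23, 12, 14 and 37 across GFP low libraries 1 to 5. In CPM these were 3.94, 11.5, 8.42, 3.50 and 2.94 in GFP high, against 2.15, 1.63, 1.16, 1.10 and 2.50 in GFP low. The groups did not overlap, but the lowest GFP high library and the highest GFP low library, both numbered 5, were close.

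The mean Cxcr5 level was 6.06 ± 3.74 CPM in the GFP high set, against 1.71 ± 0.613 CPM in the GFP low set (SD, n = 5 each). Its log2 fold change was 1.81 ± 0.43 (SE, edgeR adjusted p = 0.00791), a fold of 3.51. By pair the fold was 1.83, 7.08, 7.24, 3.18 and 1.18. With replicates 4 and 5 on their own the value was 0.81 ± 0.56 and missed the threshold (edgeR adjusted p = 0.341). With replicates 1 to 3 on their own it was 2.28 ± 0.46 (adjusted p = 0.00649). The difference between these effects was -1.26 ± 0.78 and did not pass (adjusted p = 0.830). Without both libraries numbered 3 the call was lost as well (1.57, adjusted p = 0.0545).

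Cxcr5 shares 110 of its 3332 exon bases, 3.30%, with Bcl9l on the opposite strand, and the sources used here do not give whether counting used strand. Bcl9l had 22.6 ± 4.47 CPM in the GFP high set, against 19.9 ± 2.86 CPM in the GFP low set (SD, n = 5 each) and did not pass (log2 fold change 0.18 ± 0.16, edgeR adjusted p = 0.413).

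The remaining homing receptors were near the limit of detection and were not tested. Ccr9, which guides cells to CCL25 in thymus and gut, gave 4, 6, 2, 8 and 15 counts across the GFP high libraries, against 4, 3, 0, 8 and 8 across the GFP low ones. Its range of 0.140 to 1.30 CPM in GFP high overlapped that of 0 to 0.629 CPM in GFP low. The annotated Ccr9 locus is long, with 10260 exon bases, and overlaps other genes. Cxcr3, the receptor for interferon-induced chemokines on activated T cells, gave 18, 8, 2, 0 and 6 counts across the GFP high libraries, against 12, 4, 0, 10 and 16 across the GFP low ones. Cxcr3 was higher in GFP high in 3 of 5 pairs. Ccr6, the CCL20 receptor, had 4 counts in GFP high library 3 and 0 in every other library.

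The myeloid receptors were near the limit of detection too. Ccr2, which guides monocytes out of the marrow, gave 2, 8, 10, 0 and 0 counts across the GFP high libraries, against 4, 4, 8, 4 and 4 across the GFP low ones, so that 3 of 5 GFP high and 5 of 5 GFP low libraries held any. Ccr1, a receptor of inflammatory chemokines on myeloid cells, gave 6, 0, 0, 0 and 4 counts across the GFP high libraries, against 0 across all the GFP low ones. Reads of receptor genes with similar sequences could be shared, and these low counts are uncertain for that reason too. In a fit without the filter none of the 6 scarce members passed over all genes, with adjusted p-values of 0.140 for Ccr1, 0.185 for Ackr3, 0.276 for Ccr6, 0.572 for Ccr9, 0.885 for Ccr2 and 0.921 for Cxcr3. The unadjusted p was 0.0242 for Ccr1 and 0.0372 for Ackr3.

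Relative to the retention receptor Cxcr4, Ccr7 stood higher in the GFP high library of every pair. Per kilobase of exon, Ccr7 stood at 22.3, 21.8, 30.7, 39.7 and 34.0 per 100 of Cxcr4 in GFP high libraries 1 to 5 and at 9.19, 8.26, 7.99, 22.02 and 19.98 in GFP low libraries 1 to 5. The ratio was higher in GFP high in all 5 pairs, by 2.43-, 2.63-, 3.84-, 1.80- and 1.70-fold, but the groups overlapped, since GFP low library 4 was above GFP high library 2. In both groups, replicates 4 and 5, which had less Cxcr4, gave the highest ratios. Cxcr5 stood at 1.28 to 2.78 per 100 of Cxcr4 over the GFP high set, against 0.329 to 2.17 over the GFP low set, and in pair 5 the GFP low library was the higher. Cxcr4 made up 70.4% to 80.2% of the summed level of the 9 genes over the GFP high set, against 80.3% to 92.2% over the GFP low set. These ratios are descriptions with no test.

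**Figure D3:**
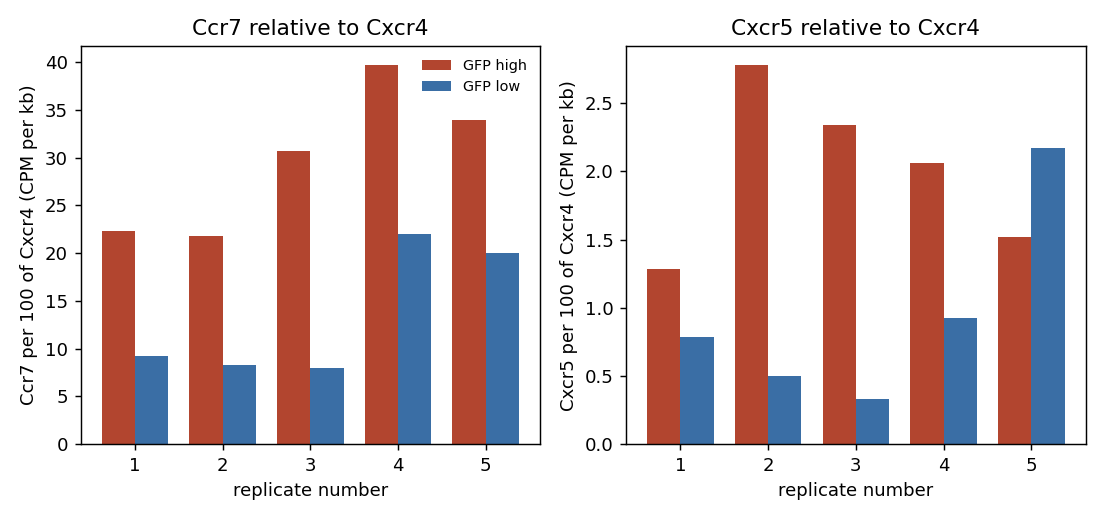
Ccr7 (left panel) and Cxcr5 (right panel) per 100 of Cxcr4, each as CPM per kilobase of exon, for replicates 1 to 5, with GFP high (red) left of GFP low (blue) at each number. The GFP high bar is the taller for Ccr7 at every number and for Cxcr5 at numbers 1 to 4.

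Some markers of other cells also differed between GFP high and GFP low. The 12 mature B-cell markers summed to 1010 to 1596 CPM across the GFP high set, against 980 to 1354 CPM across the GFP low set. Of the 10 of these that were tested, 2 rose in GFP high, Ighd and Cd74, and 1 fell, H2-Ab1, where 12.0% of all genes tested were higher and 15.4% lower. With the block, which called 20.7% of genes higher and 21.0% lower, 3 mature B-cell markers rose and 2 fell. The same shares stand beside the calls in the marker lists that follow. The 10 monocyte and macrophage markers, none at 0 in all libraries, summed to 90.9 to 143 CPM across the GFP high set, against 54.7 to 92.4 CPM across the GFP low set, led by Lyz2. Without Lyz2 they summed to 37.1 to 54.6 CPM across the GFP high set, against 12.4 to 18.9 CPM across the GFP low set, with no overlap. Csf1r alone averaged 26.1 ± 4.24 CPM in the GFP high set, against 5.92 ± 1.81 CPM in the GFP low set (SD, n = 5 each). Of the 6 tested, 3 rose in GFP high, namely the macrophage growth factor receptor gene Csf1r (4.40-fold, edgeR adjusted p = 3.53e-05), Mpeg1 (5.58-fold, adjusted p = 0.00247) and Ly6c2 (2.23-fold, adjusted p = 0.0286), and all 6 rose with the block. The 8 plasmacytoid dendritic cell markers, of which Klk1 was at 0, summed to 66.0 to 112 CPM across the GFP high set, against 60.1 to 67.6 CPM across the GFP low set, led by Bst2. Without Bst2 they summed to 24.6 to 61.6 CPM across the GFP high set, against 12.8 to 19.97 CPM across the GFP low set, with no overlap. Tlr7 alone averaged 37.7 ± 12.6 CPM in the GFP high set, against 8.84 ± 3.66 CPM in the GFP low set (SD, n = 5 each). Of the 6 of these markers tested, Siglech (22.9-fold, edgeR adjusted p = 0.000230) and the nucleic acid sensor gene Tlr7 (4.25-fold, adjusted p = 0.000509) rose in GFP high, and Lair1 fell (0.341-fold, adjusted p = 0.00348). The other 3, among them Bst2, did not pass. Of the 5 plasma cell markers tested, Xbp1 and Sdc1 rose, and Jchain fell to 0.629 ± 0.408 CPM in GFP high, against 56.7 ± 23.4 CPM in GFP low (edgeR adjusted p = 6.18e-06). With the block 4 of these plasma cell markers rose and 1 fell. Siglech, Mpeg1, Ly6c2 and the macrophage marker Cd68, which rose only with the block, passed the filter only through GFP high. Jchain and Lair1 passed it only through GFP low, so these calls are in part set by the filter. Of the 8 NK-cell markers Gzma, Eomes and Klra8 were at 0 in all libraries, and the list summed to 187 to 329 CPM across the GFP high set, against 63.5 to 166 CPM across the GFP low set. Without its most abundant gene, Klrb1c, it summed to 1.46 to 4.68 CPM across the GFP high set, against 0 to 1.96 CPM across the GFP low set. Neutrophil markers, led by S100a9, summed to 3.72 to 11.01 CPM across the GFP high set, against 3.39 to 7.99 CPM across the GFP low set. The part of these cells in the rise of Ccr7 and Cxcr5 was not tested. In bulk samples, fewer cells of a type and less RNA per cell cannot be told apart.

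Among 15 other chemokine receptor genes 3 were at 0 in all libraries and 1, Ccrl2, was tested. Ccrl2, an atypical receptor that binds chemerin and does not signal by the usual route, gave 226, 228, 310, 306 and 212 counts across the GFP high libraries, against 144, 162, 171, 140 and 180 across the GFP low ones. Its level was 20.1 ± 2.86 CPM in the GFP high set, against 12.3 ± 2.47 CPM in the GFP low set (SD, n = 5 each), and it rose by 0.71 ± 0.16 on the log2 scale (SE, edgeR adjusted p = 0.00694). With replicates 1 to 3 on their own it missed the threshold (0.63, edgeR adjusted p = 0.0739).

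The genes whose pattern over the 10 libraries was most like that of a member were found by the correlation of log2 CPM among 9950 genes with a mean of at least 5 CPM. For Cxcr4 these were Zfp472 (Pearson r = 0.993), the demethylase gene Alkbh1 (r = 0.982) and Kbtbd2 (r = 0.980). All of them were lower in replicates 4 and 5, for example Zfp472 with 33.0 CPM there and 72.4 CPM in replicates 1 to 3. For Ccr7 they were the kinase gene Map3k3 (r = 0.989), the histone demethylase gene Kdm7a (r = 0.977) and the class I histocompatibility gene H2-Q7 (r = 0.977). Kdm7a, for example, had 62.6 ± 6.08 CPM in the GFP high set, against 34.7 ± 2.01 CPM in the GFP low set (SD, n = 5 each). These correlations are descriptions over libraries that share their groups and replicate numbers. Genes chosen for likeness share the group or replicate differences of the member by selection, so their values are not separate evidence.

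Of 22 chemokine ligand genes 7 were at 0 in all libraries and 5 were tested, of which 3 rose in GFP high, 1 fell and 1 did not pass (median log2 fold change 1.95, against 0.03 for all genes tested, of which 12.0% rose and 15.4% fell). Ccl4, which attracts T cells and myeloid cells, gave 70, 63, 30, 66 and 66 counts across the GFP high libraries, against 10, 0, 0, 6 and 4 across the GFP low ones (log2 fold change 3.93 ± 0.69, edgeR adjusted p = 0.00124). Ccl3, a ligand of CCR1, gave 22, 32, 22, 11 and 76 counts across the GFP high libraries, against 2, 0, 4, 2 and 6 across the GFP low ones (3.57 ± 0.73, adjusted p = 0.00335). Both passed the filter only through GFP high, so a rise in them, and the median that includes them, is in part set by the filter. With 5 genes tested, the median is the value of Cxcl12, the gene that did not pass, and does not describe a rise of the whole list. Mif, an inflammatory cytokine that can bind CXCR4, fell by 0.57 ± 0.10 to 151 ± 22.6 CPM in GFP high, against 224 ± 11.8 CPM in GFP low (adjusted p = 0.00141).

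The CCR9 ligand gene Ccl25 rose by 0.71 ± 0.19 (edgeR adjusted p = 0.0146). The CXCR4 ligand gene Cxcl12 gave 48, 182, 6, 4 and 0 counts across the GFP high libraries, against 20, 32, 10, 4 and 2 across the GFP low ones and did not pass (1.95 ± 1.16, edgeR adjusted p = 0.236). GFP high library 2 held 182 of the 240 counts of that group. The CXCR5 and CCR7 ligand genes Cxcl13, Ccl19 and Ccl21a were at 0 in all libraries. Ccl25 and these genes were named because they encode ligands of the receptors described.

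All 17 genes of the G protein and lipid kinase transducers were tested, of which 3 rose, 2 fell and 12 did not pass (median 0.21), where 12.0% of all genes tested were higher and 15.4% lower. With the block, which called 20.7% of genes higher and 21.0% lower, 8 rose and 3 fell. Gna12, a G protein alpha subunit that couples to RhoA, rose by 0.65 ± 0.10 to 252 ± 23.9 CPM in GFP high, against 161 ± 17.0 CPM in GFP low (edgeR adjusted p = 0.000406). Pik3cd, the leukocyte catalytic subunit p110delta of PI3-kinase, rose by 0.57 ± 0.13 (adjusted p = 0.00565), and Gnb2, a G protein beta subunit, fell by 0.30 ± 0.08 (adjusted p = 0.0125). Gnai2, the main inhibitory alpha subunit through which chemokine receptors signal, had 716 ± 84.0 CPM in the GFP high set, against 735 ± 43.9 CPM in the GFP low set (SD, n = 5 each). Its log2 fold change of -0.04 ± 0.09 did not pass (edgeR adjusted p = 0.778) and was 0.01 in replicates 4 and 5 alone.

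Of 17 genes of receptor desensitisation and turnover 15 were tested, of which 3 rose, 1 fell and 11 did not pass (median 0.18), against 12.0% higher and 15.4% lower over all genes. With the block 6 rose and 1 fell, against 20.7% higher and 21.0% lower over all genes. Without GFP low library 2 or 5 only 1 gene of the list rose. Dpp4, the peptidase that cuts and inactivates CXCL12, rose by 0.68 ± 0.14 to 674 ± 121 CPM in GFP high, against 422 ± 72.1 CPM in GFP low (edgeR adjusted p = 0.00308). Rgs2, which shortens G protein signalling, rose by 0.61 ± 0.18 (adjusted p = 0.0266), but did not pass in replicates 1 to 3 alone (adjusted p = 0.108), without both libraries numbered 3 (adjusted p = 0.0504), or without GFP low library 2 (adjusted p = 0.0636) or 5 (adjusted p = 0.0503). Grk2, the kinase that phosphorylates active receptors, fell by 0.37 ± 0.12 (adjusted p = 0.0404), with 602 ± 114 CPM in the GFP high set, against 779 ± 75.2 CPM in the GFP low set (SD, n = 5 each). Its call was lost in 8 of the 10 fits that left out a library, and the lowest estimate in size was -0.28, without GFP high library 4.

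All 19 genes of migration and integrin activation were tested, of which 2 rose, 4 fell and 13 did not pass (median -0.07), against 12.0% higher and 15.4% lower over all genes. With the block 5 rose and 5 fell, against 20.7% higher and 21.0% lower. The small GTPase gene Rac1 fell by 0.34 ± 0.06 to 551 ± 27.0 CPM in GFP high, against 699 ± 25.3 CPM in GFP low (edgeR adjusted p = 0.00154). Coro1a, an actin regulator needed for lymphocyte egress, fell by 0.39 ± 0.10 (adjusted p = 0.0126). Dock2, which activates Rac downstream of chemokine receptors, rose by 0.51 ± 0.14 (adjusted p = 0.0149), with 387 ± 56.0 CPM in the GFP high set, against 271 ± 52.1 CPM in the GFP low set (SD, n = 5 each). Without both libraries numbered 3 neither Coro1a (adjusted p = 0.0628) nor Dock2 (adjusted p = 0.0614) passed, and Coro1a also missed the threshold in replicates 4 and 5 alone (edgeR adjusted p = 0.0521). Called genes lay in both directions in the transducer, desensitisation and migration lists.

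**Figure D4:**
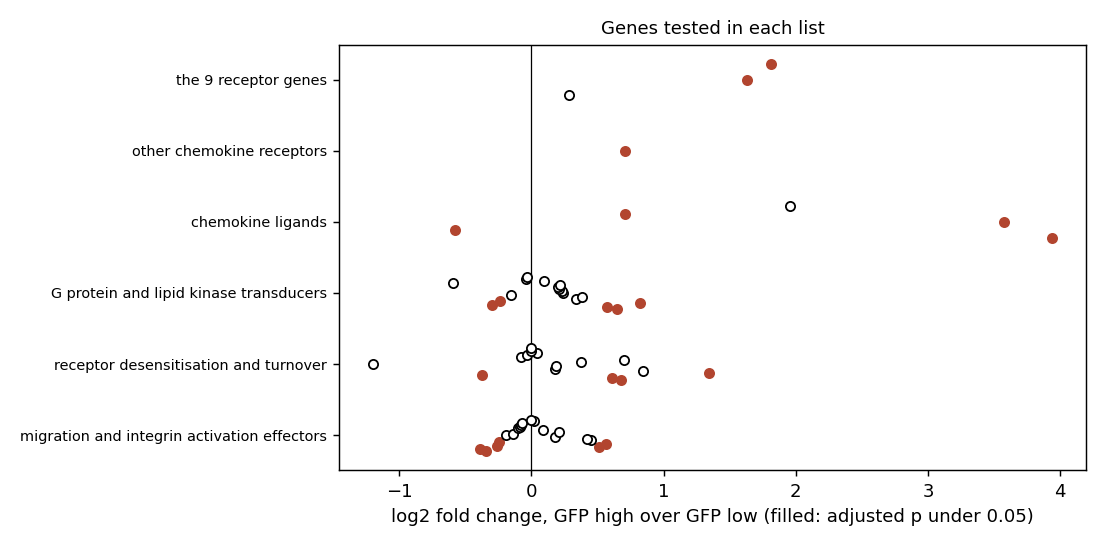
Log2 fold change of GFP high over GFP low for each gene tested in the 9 receptor genes and in 5 related lists, 1 point a gene (filled, adjusted p under 0.05; open, not under 0.05). Ccr7 lies at 1.63, Cxcr5 at 1.81 and Cxcr4 at 0.28, and the medians of the signalling lists lie between -0.07 and 0.21.

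Across the settings tried, the log2 fold change of Ccr7 stayed between 1.42 and 1.77 and passed in all 18 alternatives. That of Cxcr5 stayed between 0.81 and 2.28 and that of Cxcr4 between 0.12 and 0.62, positive in all 18.

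**Figure D5:**
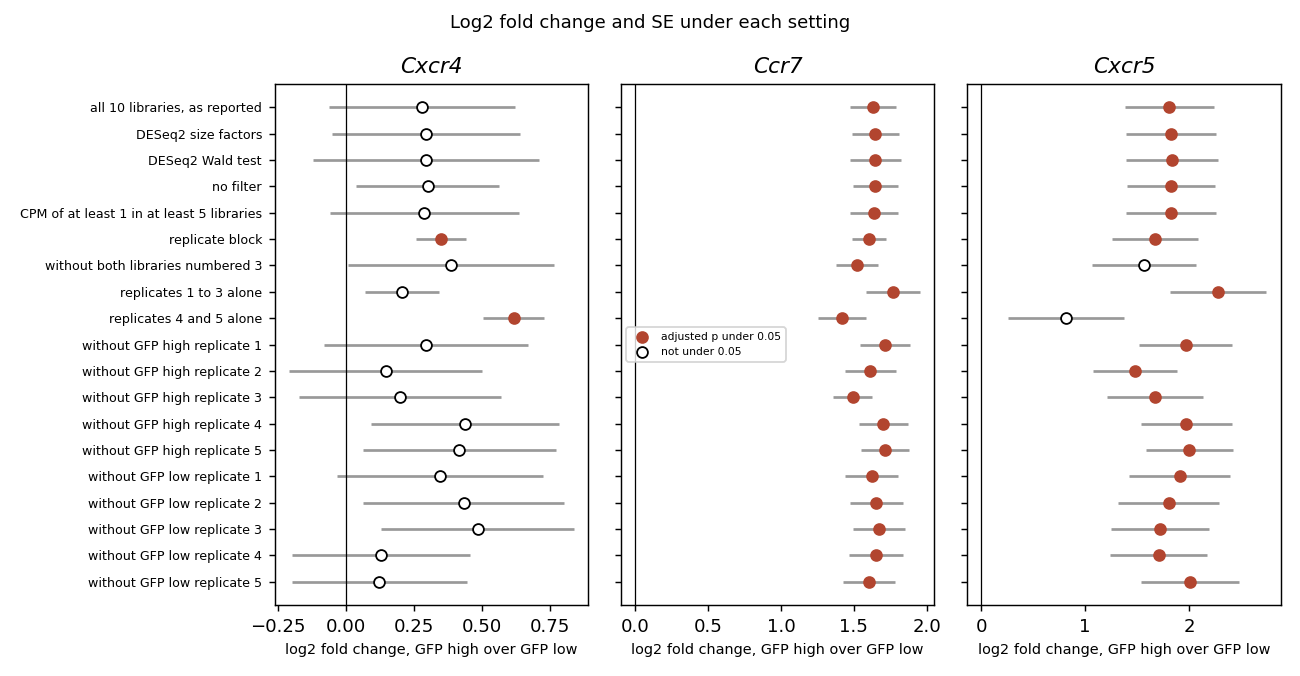
Log2 fold change of GFP high over GFP low with its SE for Cxcr4, Ccr7 and Cxcr5 under the reported setting and 18 alternatives (filled, adjusted p under 0.05; open, not under 0.05). Ccr7 is filled throughout, Cxcr5 is open when libraries 4 and 5 stand on their own or both numbered 3 are left out, and Cxcr4 is filled only with the replicate block and in replicates 4 and 5 alone.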

How the data were processed

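Per the labels, polyadenylated RNA from bone marrow B cells was amplified with a low-input template-switching kit. The authors deposited whole-number read counts per Ensembl gene, not normalized. The submitters' processing notes name mm10, STAR, featureCounts and DESeq2, with no role or setting. Of counts from 1 to 20, 68.4% were even. Symbols and exon lengths came from GENCODE M21 (GRCm38, the build mm10), matching 99.833% of 55573 identifiers, and promoters from RefSeq (GRCm38.p6), which had entries for 7 of the 9 members. Ccr7 and Cxcr5 had no such entry.

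Titles gave groups and replicate numbers. GFP high was compared with GFP low with edgeR 4.0.16 in R 4.3.3 (filterByExpr with a minimum count of 10, TMM, quasi-likelihood test, no covariate, Benjamini-Hochberg over 12772 genes, threshold 0.05). Alternatives were DESeq2 1.42.0 (Wald test, and its size factors in edgeR), other filters, the block, and subsets of libraries. SE is the log2 fold change over the root of F. CPM used TMM-scaled library sizes. Same-numbered libraries correlated at 0.289 to 0.405 in their deviations from group means, each best with its own number in 5 of 5 cases, so the numbers were taken to pair libraries. A fit with the replicate block stands beside the Cxcr4 result and the counts of called genes that it changed. Calls that it changed among other cell type markers and among the genes named for likeness are not all given. No libraries of a group agreed within sampling noise (lowest chi-square per gene 7.28). On simulated counts for 12772 genes a simulated 1.5-fold change was called for 17.9% of 67 genes, a 2-fold change for 55.2% of 67 and a 4-fold change for 84.8% of 66, with 4 false calls of 109. The simulation changed far fewer genes than the real comparison called and held no effect shared by replicate number. These shares are therefore not the power of the real comparison.

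The members and lists were chosen with earlier results of these data known. Named were the 9 members, other receptors tested, the 3 tested genes with the lowest p in each of 4 ligand and signalling lists, the 3 most similar genes per member with at least 5 CPM, and the most abundant marker per cell type. Some items that this rule names are not reported here. Further genes were chosen after their values were seen. Of the other marker lists, plasma cell markers (led by Irf4) summed to 622 to 1095 CPM in GFP high and 509 to 805 CPM in GFP low, and basophil and eosinophil markers (led by Prg2) to 1.04 to 3.79 CPM in GFP high and 1.27 to 4.23 CPM in GFP low.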

Additional observations from a re-analysis of the deposited data

Results flagged for a closer look

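In 44 groups of 5 libraries, from 22 genes, 5 had a library far from the others (gap over range above 0.71). For normally distributed values chance gives about 1 in 20 groups. That rate does not hold for counts near 0, and a group at 0 in all its libraries cannot be flagged. Ccr6 had 0.281 CPM in GFP high library 3, from 4 counts, and 0 in the others. Ccr2 had 0.775 CPM in GFP low library 3, against 0.314 CPM in the next library. Ccl4 had 2.10 CPM in GFP high library 3, against 5.10 CPM in the next. Pik3cd had 457 CPM in GFP high library 1, against 605 CPM in the next. Rgs2 had 1094 CPM in GFP high library 1, against 720 CPM in the next.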

How the results depend on the processing

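Cxcr4, Cxcr5 and Ccr7 kept their direction under the 18 alternatives, as did Ccrl2 and the genes named by lowest p in the ligand and signalling lists (for Ccl3, the 17 that gave a value). Bcl9l, Ccl25, Cxcl12, Gnai2 and the genes named for likeness or as cell type markers were not followed through all alternatives. With the replicate block Cxcr4 passed (0.35, edgeR adjusted p = 0.00899), 2645 genes were called higher, against 1538 without it, and the calls higher were 8 among transducers, 6 among desensitisation genes and 5 among migration genes. The block changed no call of another member. Replicates 4 and 5 alone called Cxcr4 (0.62, adjusted p = 0.00289), lost Cxcr5 (0.81, adjusted p = 0.341) and left 1 transducer and 1 migration gene lower. Replicates 1 to 3 alone gave 0 other receptors higher, 4 migration genes higher and 0 desensitisation genes lower. Both divisions of the replicates were chosen after seeing the data. Without both libraries numbered 3, 926 genes were called higher, Cxcr5 was lost (1.57, adjusted p = 0.0545), and there were 0 migration genes higher, 1 migration gene lower and 1 transducer lower. Coro1a (adjusted p = 0.0628) and Dock2 (adjusted p = 0.0614) were among the calls lost there. With no filter 1405 of 26423 genes were called higher and 1590 lower. There were then 2 other receptors higher, 1 transducer lower, 2 migration genes lower and 0 desensitisation genes lower. The last count was also 0 with DESeq2 size factors and with a filter of 1 CPM in 5 libraries.

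Leaving out each library in turn gave 0.12 to 0.48 for Cxcr4, 1.48 to 2.01 for Cxcr5 and 1.49 to 1.71 for Ccr7. It gave 1189 to 1479 genes higher over all genes, 1 to 2 transducers lower, 1 to 3 desensitisation genes higher, 0 to 1 desensitisation genes lower, 1 to 3 migration genes higher and 2 to 4 migration genes lower. For the 6 scarce receptors, with a floor of 0.202 to 0.282 CPM a library, no difference passed over all genes.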

Other observations

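Without the filter on low counts 1 more chemokine receptor gene was called, Ackr2, which takes up inflammatory CC chemokines and was named after its values were seen. It gave 12, 12, 6, 12 and 6 counts across the GFP high libraries, against 0, 2, 0, 4 and 0 across the GFP low ones (log2 fold change 2.93, edgeR adjusted p = 0.0461 over all genes with a count), and it was not tested with the filter. The fit without the filter called 1405 of 26423 genes higher and 1590 lower. All Ackr2 counts were even, so they may not be independent, and the call is uncertain for that reason.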
